A study of Saccharomyces cerevisiae with 12 samples.

Results

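Shutting off *GLN4*, the gene for the cytoplasmic glutaminyl-tRNA synthetase, was followed in tetO-*GLN4* yeast by comparing mRNA levels with and without doxycycline across the cell wall, transport, respiration, metals, nucleotides and proteolysis. The members were all genes of the tetO-*GLN4* expression table whose estimate carried the status OK in both conditions, which was 7123 of the 7130 genes listed. Of these, 512 were listed at 0 in both conditions and 58 in 1 of them, and the remaining 6553 gave a ratio. Functional classes were described through 38 gene lists holding 733 genes, of which 728 gave a ratio. The other 5 were *HXT16*, *ENA2*, *CUP1-1* and *CUP1-2*, listed at 0, and *PMA1*, whose estimate failed without doxycycline.

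The series held 12 RNA sequencing samples in 4 groups, each with 3 cultures labelled A, B and C. The wild type was BY4742, a haploid strain that carries deletions in *HIS3*, *LEU2*, *LYS2* and *URA3*, and the tetO-*GLN4* strain McFY2 carried the same deletions. In McFY2 the native *GLN4* promoter was replaced by a KanMX4-tTA-tetO7 cassette, so the transcription activator binds the tet operator and drives *GLN4* until doxycycline releases it. Each strain was grown in rich YEPD medium with no doxycycline or with 1 μg/ml, overnight and to mid-log phase, with the inoculum adjusted for the slower growth of treated cultures. The labels name 1 strain with the tet cassette, so effects of the construct and of that strain cannot be told apart.

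The values were FPKM, fragments scaled to gene length and to the number mapped. Cuffdiff had combined the 3 cultures of a condition into 1 FPKM per gene with a 95% interval, printed here in parentheses. Values per culture and read counts were not analysed, so the sequencing depth is unknown, the spread between cultures cannot be shown and no p-value is given. A gene was called higher or lower with doxycycline where its 2 intervals did not overlap, and log2 ratios are given with an SD taken from those intervals. The 2 strains were normalized in separate tables, so the response to doxycycline was formed within a strain. A ratio between the strains was formed for untreated levels alone, after centring. Where a treated level is set beside the wild type, both are the deposited FPKM without centring.

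A yeast cell builds its wall from glucan, chitin and mannoproteins, and rebuilds it at each bud by cutting and relinking the glucan. Permeases on the plasma membrane and carriers in the mitochondrial inner membrane set which sugars, amino acids and cofactors enter, and many are switched by the nutrient they carry. Uncharged tRNA is known in yeast to turn on the kinase Gcn2 and the activator Gcn4, whose targets reach well beyond amino acid synthesis into vitamin synthesis, transport and autophagy.

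The label was checked first at *GLN4* (YOR168W). Its FPKM was 199 (157 to 241) in wild type without doxycycline and 199 (158 to 241) with it. In tetO-*GLN4* it was 30.5 (24.1 to 36.9) with doxycycline. Without doxycycline it is listed at 0 with a status that marks a locus of too many fragments, so this 0 is a failed estimate and no fold was formed. *LEU2*, *LYS2* and *URA3* were listed at 0 in all 4 groups.

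In tetO-*GLN4*, 984 genes were higher (15.0% of those with a ratio) and 1052 were lower (16.1%) with doxycycline. In the wild type the same rule called 6 genes higher (0.0915%) and 4 lower (0.0610%) of 6560. The smallest change called in tetO-*GLN4* was 0.59 on the log2 scale, and a log2 ratio had a median SD of 0.22. The summed FPKM fell from 2614110 without doxycycline to 1698780 with it, while the median log2 ratio over genes was 0.0071. Scaling both conditions to an equal sum would therefore add 0.62 to every log2 ratio, and would turn the split from 48.3% higher among the called genes to 90.3%, with 2824 higher and 303 lower. The ratios below keep the deposited scale. The equal-sum value is given wherever it turns the direction of a list or ends the call of a gene named. Calls that equal sums would add are not marked gene by gene, so a gene not called below is one not called on the deposited scale. Counts of called genes in a list, or among its genes with a motif, are to be read beside the 15.0% and 16.1% over all genes.

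Among the 728 list genes, 152 were higher and 142 lower in tetO-*GLN4*. On equal sums all 152 were still higher, 66 of the 142 were still lower and the other 76 were not called, and 228 of the 434 not called before were higher. In wild type 1 of them was called, the zinc transporter gene *ZRT1*, and the list medians there ran from -0.084 to 0.029. In tetO-*GLN4* the list medians ran from -1.54 for daughter cell separation to 1.00 for hexose transporters, the latter resting on genes of very low level (median -0.21 over genes with at least 1 FPKM in both conditions). At least 50% of the members were higher in 3 lists (amino acid permeases; nucleobase, vitamin and peptide transporters; iron-sulfur cluster assembly) and lower in 3 others (daughter cell separation, glucan remodelling enzymes, purine salvage).

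**Figure D1:**
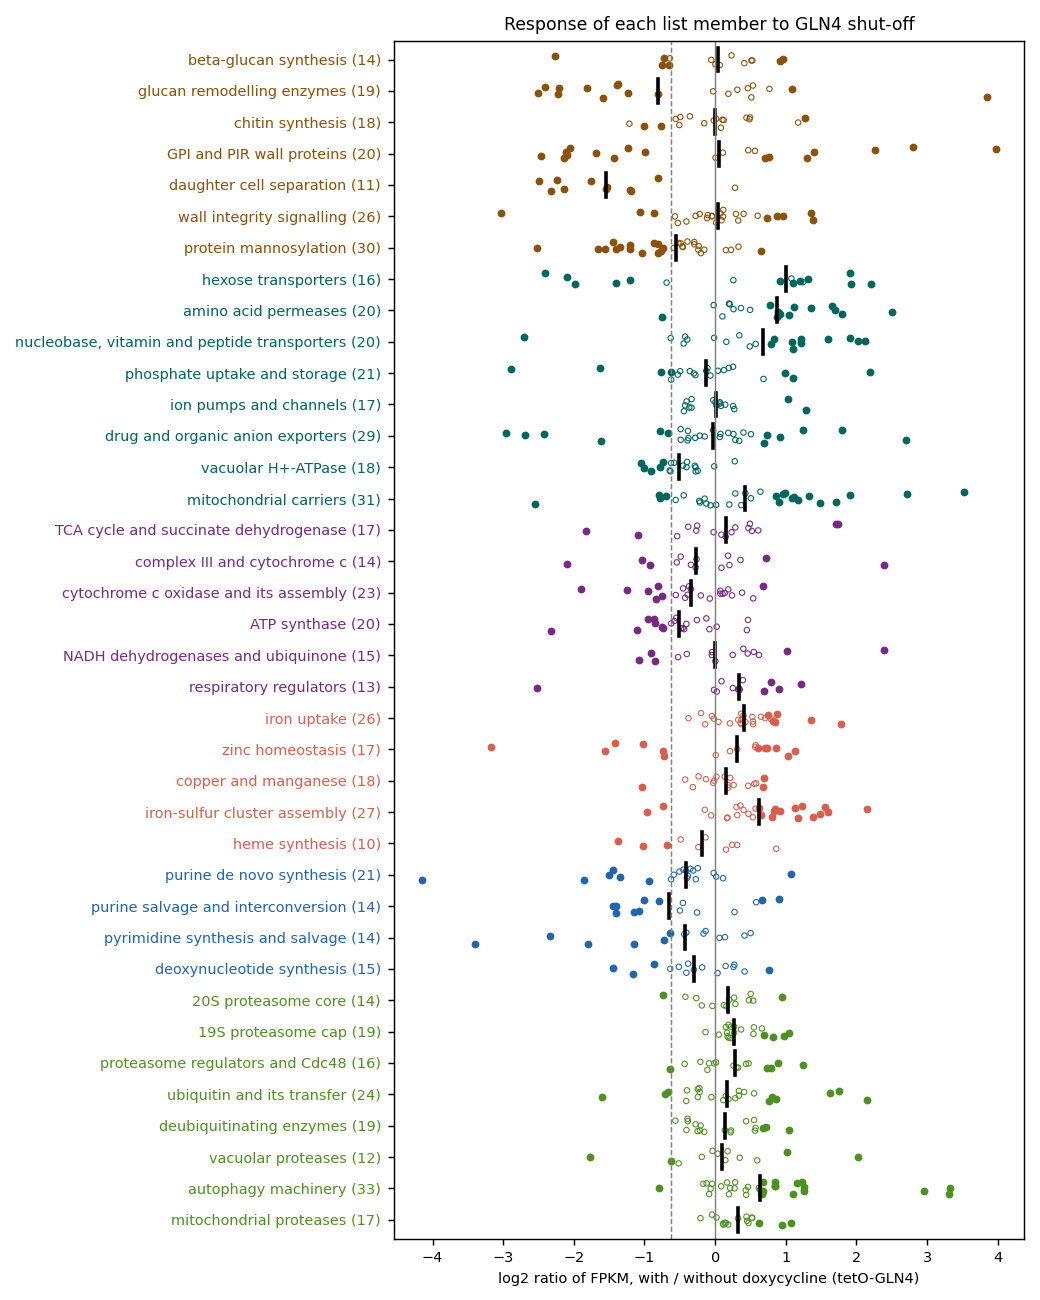
Each point is 1 gene of a list, placed by the log2 ratio of its FPKM with over without doxycycline in tetO-GLN4, filled where the 2 deposited 95% intervals lie apart. Black bars are list medians, the number of genes with a ratio is in parentheses, and the dashed line at -0.62 is where no change would lie if the summed FPKM of both conditions were made equal. Daughter cell separation has the lowest median (-1.54), and the hexose transporters spread to both sides.

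Most called genes that shape and cut the wall were lower, while *PIR3*, *PIR5* and *NCA3* were many-fold higher. Over the whole cell wall theme, 18 of 138 genes were higher and 52 were lower, and the median log2 ratio of -0.29 turns to 0.34 on the equal-sum scale. Of the glucan remodelling enzymes, 10 of 19 were lower and 2 higher, with a median log2 ratio of -0.81, which is -0.028 without the genes that share a locus. Among the lower ones were *GAS1*, which lengthens glucan chains (1577 (1217 to 1936) FPKM without doxycycline, 342 (262 to 422) with it, log2 -2.21, SD 0.24), and *UTR2*, which crosslinks chitin to glucan (580.2 (443 to 717) and 109 (86.4 to 132), log2 -2.41, SD 0.23). *GAS1* shares its locus in the table with another feature, so its reads may not be its own. *CRH1*, whose enzyme does the same work as that of *UTR2*, measured 364 and 357 with overlapping intervals.

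The SUN family of wall proteins split in direction. *SIM1* fell from 269 (207 to 331) to 47.3 (37.7 to 56.8) FPKM, a log2 ratio of -2.51 (SD 0.22), and *SUN4* fell from 507 (388 to 626) to 145 (114 to 175). *NCA3* rose from 34.2 (26.7 to 41.8) to 493 (378 to 608), a log2 ratio of 3.85 (SD 0.23), and *UTH1* rose from 1378 (1055 to 1699.8) to 2915 (2259 to 3571). In wild type none of the 4 was called, and their log2 ratios lay between -0.15 for *NCA3* and 0.058 for *SUN4*. Promoters of the list were searched for the Swi4 cell cycle box CGCGAAA on both strands, in the 500 bases before the start codon. It stood before 8 of 19 genes of the list and before 5.81% of 6006 yeast genes, and all 8 were lower. In the list 52.6% of genes were lower, and over all genes 16.1%. The share lower among all genes with the box was not computed. *SIM1* and *SUN4* are among the 8, and *NCA3* and *UTH1* are not. Whether the box bears on the direction was not tested. The boxes of 4 of the 8 are shown because the genes share the motif and fell; capitals mark the box, read 5′ to 3′ on the strand of the gene (TTTCGCG is the box on the other strand), from the R64 RefSeq genome.
SIM1 (chrIX:127916-127940, plus strand): tttttggcgTTTCGCGtcagtcaat
SUN4 (chrXIV:501343-501367, plus strand): gatttacggCGCGAAAataagtttc
UTR2 (chrV:77807-77831, plus strand): aggaagaagCGCGAAAattcttgaa
SCW4 (chrVII:1050376-1050400, minus strand): ggcaccgctTTTCGCGcgacaccct

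Daughter cell separation was the most one-sided list, with 10 of 11 genes lower and 0 higher, and its median of -1.54 stays below 0 on the equal-sum scale (-0.92). Most of these genes encode enzymes and wall proteins that free a daughter from its mother. The chitinase gene *CTS1* fell from 2399 (1859 to 2938) to 424 (323 to 526) FPKM, a log2 ratio of -2.50 (SD 0.24), at a locus shared with another feature. *DSE2* fell from 1712 (1309 to 2116) to 342 (264 to 419.8) and *EGT2* from 225 (172 to 278) to 51 (40.1 to 61.8), which gave log2 ratios of -2.32 and -2.14. *PRY3* was the exception, at 67.9 and 82.5. In bulk RNA a smaller share of cells expressing such genes and less transcript per cell cannot be told apart.

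**Figure D2:**
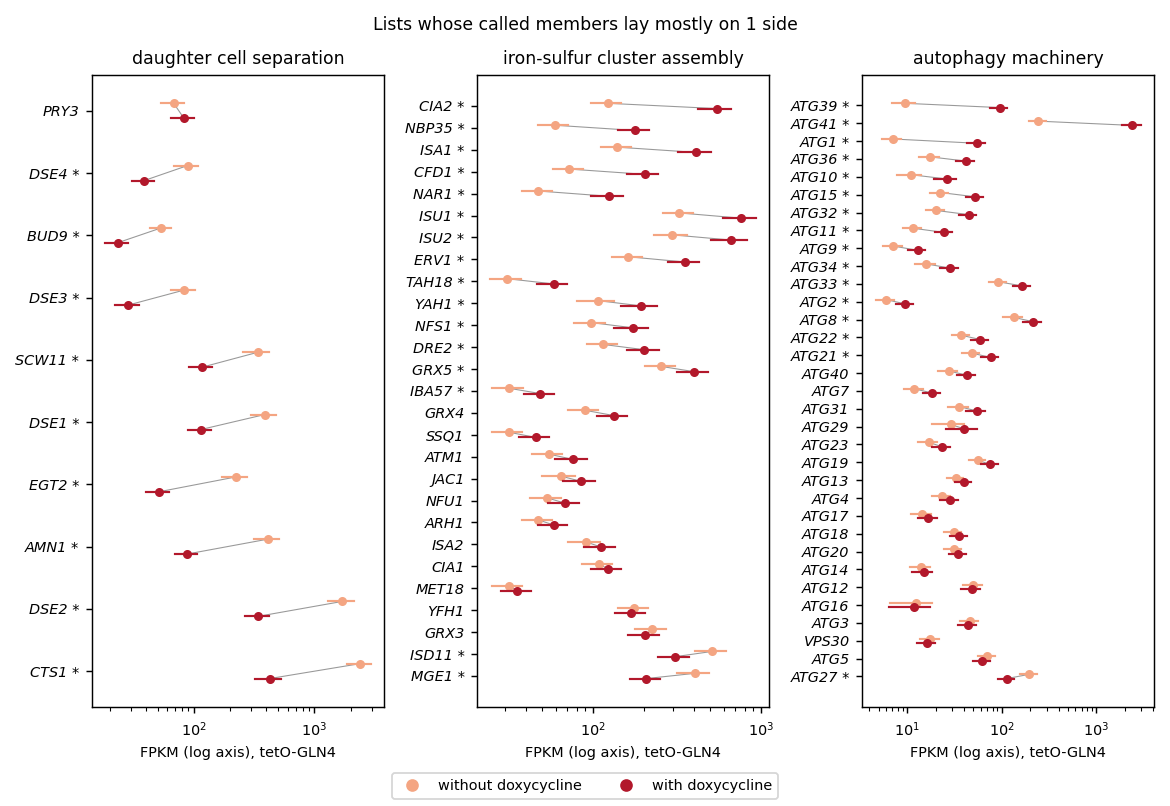
Members of 3 lists with their FPKM on a log axis in tetO-GLN4 without (light) and with (dark) doxycycline. Bars are the deposited 95% intervals and an asterisk marks intervals that lie apart. Daughter cell separation, drawn without 1 of its genes, has 9 of the 10 genes drawn called lower with doxycycline. Iron-sulfur cluster assembly has 14 of 27 genes called higher and autophagy 15 of 33.

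The mannoproteins anchored in the wall moved both ways, with 9 of 20 lower and 7 higher. *CWP1* fell from 142 (113 to 171) to 25.8 (19.6 to 31.9) FPKM (log2 -2.46, SD 0.23), and *CCW12*, the most abundant of them, fell from 43543 (34380.4 to 52706) to 16082 (12492 to 19672). *PIR3*, a repeat protein bound directly to glucan, rose from 25.2 (19.4 to 31) to 395 (303 to 487), a log2 ratio of 3.97 (SD 0.24), the highest of any list gene named here. In wild type *PIR3* measured 20.9 and 19.6. *PIR5* rose with it, from 5.95 (4.2 to 7.71) to 41.5 (32.6 to 50.5) (log2 2.80, SD 0.26), whereas *PIR1* fell from 941 (718 to 1164) to 399.8 (307 to 492), a call lost on equal sums, and *HSP150*, also of the PIR family, measured 1415 and 1419.9 with overlapping intervals. *TIR1*, *TIR2* and *TIR3* were higher, but the members of this seripauperin-related family resemble each other and reads could be split between them.

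Called genes for mannoprotein synthesis were nearly all lower. Of 30 mannosylation genes, 14 were lower and 1 higher, with a median log2 ratio of -0.55 that turns to 0.069 on the equal-sum scale. *PSA1*, which makes GDP-mannose, the sugar donor at the base of these pathways, fell from 3459.9 (2686 to 4234) to 604 (463 to 746) FPKM (log2 -2.52, SD 0.23). The 2 enzymes that feed it fell too, *SEC53* from 1352 to 427 and *PMI40* from 245 to 106, the latter not called on equal sums. *OCH1*, which starts the outer mannose chain, was the gene that rose, from 48 (38.3 to 57.6) to 75.6 (60.2 to 90.9). Beta-glucan synthesis had 2 genes higher and 4 lower of 14 (14.3% and 28.6%, against 15.0% and 16.1% over all genes). The synthase subunit *FKS1* fell from 207 (158 to 255) to 123 (93.7 to 152), a call lost on equal sums, its relative *GSC2* measured 40.7 and 47.8, and the most changed were *KNH1* (log2 -2.27, SD 0.22) and *ROT1* (log2 0.95, SD 0.22). Chitin synthesis had few calls, with 1 higher and 2 lower of 18 and a median of -0.0024, which becomes 0.62 on equal sums. *CHS2*, which lays down the septum, fell from 29.6 (23.6 to 35.6) to 14.8 (11.7 to 17.9), which is not called on equal sums. *SHC1*, an activator of chitin synthase, rose from 3.41 (2.46 to 4.37) to 8.22 (6.19 to 10.2).

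Among wall integrity signalling genes, 5 were higher and 3 lower of 26. The sensor genes on the membrane were lower or not called. *WSC4* fell from 107 (83.1 to 131) to 13.2 (10.2 to 16.1) FPKM (log2 -3.02, SD 0.23), and *WSC2* fell from 85.6 (68 to 103) to 41 (32.7 to 49.3), the second of which is not called on equal sums. Further down the pathway the MAP kinase gene *SLT2* rose from 93.8 (74 to 114) to 172 (134 to 209.7). Among the phosphatase genes of the list, which also include *MSG5* and *SDP1*, *PTP2* and *PTP3* rose with log2 ratios of 1.35 and 0.74. *BAG7*, a GTPase activating protein for Rho1, rose from 7.48 (5.51 to 9.45) to 19.5 (15.2 to 23.9).

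**Figure D3:**
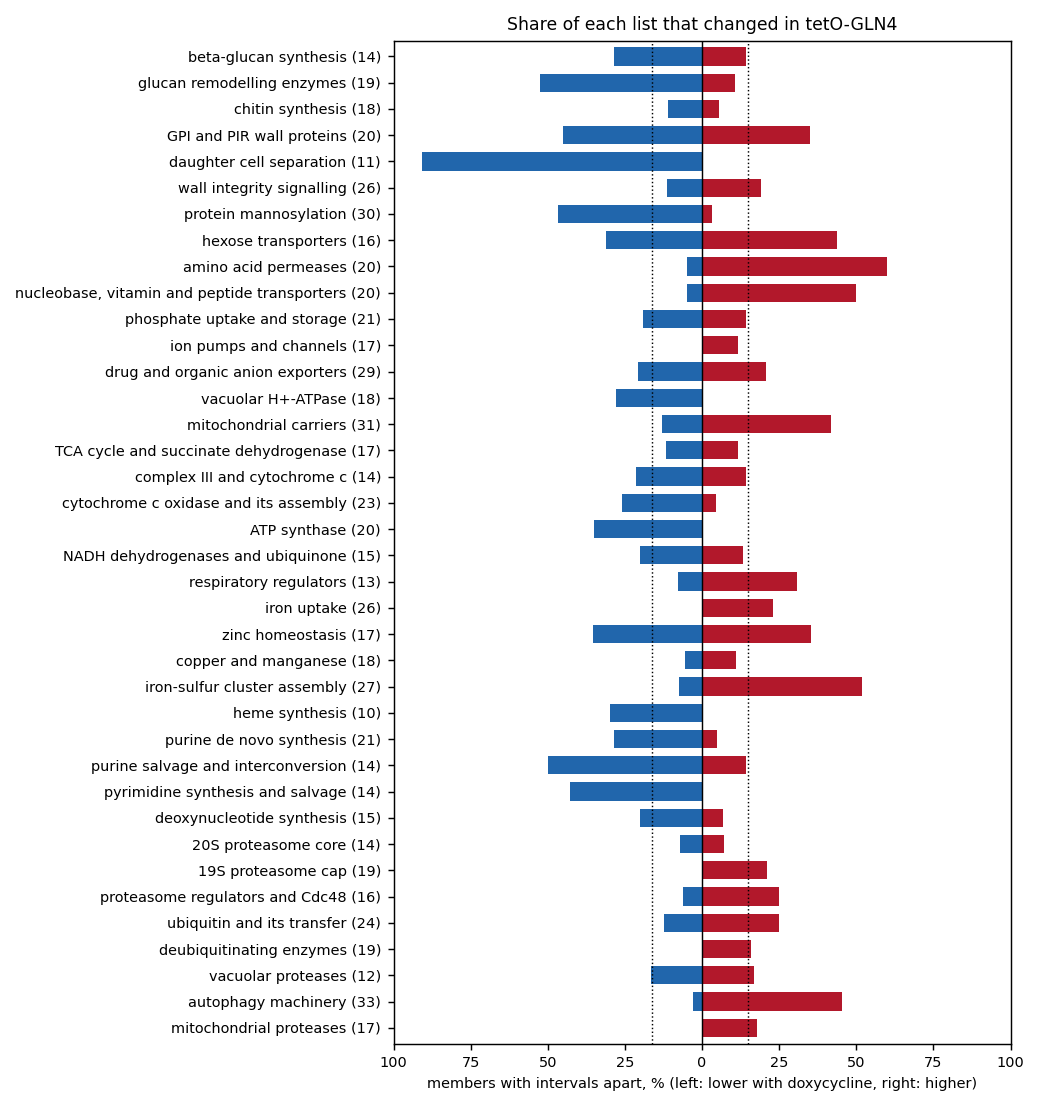
Share of each list called lower (left) and higher (right) with doxycycline in tetO-GLN4, as % of the genes with a ratio. The dotted lines mark the shares over all genes, 16.1% lower and 15.0% higher. Daughter cell separation reaches furthest to the left and the amino acid permeases furthest to the right.

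In transport, 53 of 172 genes were higher and 26 lower, and permeases for nitrogen compounds and vitamins held many of the rises. Of 20 amino acid permease genes, 12 were higher and 1 lower, with a median log2 ratio of 0.88. The proline permease gene *PUT4* rose from 2.41 (1.71 to 3.11) to 13.6 (10.6 to 16.7) FPKM (log2 2.50, SD 0.26). *BAP2*, for branched amino acids, rose from 355 (271 to 439) to 1153 (887 to 1419), and the general permease gene *GAP1* rose from 179 (137 to 221) to 459 (349 to 569.6). *TAT1*, for tyrosine and other amino acids, was the gene that fell, from 186 (143 to 229) to 111 (86.6 to 135) (log2 -0.75, SD 0.23), a call that is lost on equal sums (log2 -0.13). The glutamine permease gene *GNP1*, whose substrate is that of the depleted synthetase, rose from 269 (205 to 333) to 500.2 (381 to 619), at a locus shared with another feature.

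Of the nucleobase, vitamin and peptide transporters, 10 of 20 were higher and 1 lower. *VHT1*, for biotin, rose from 50.6 (40.3 to 60.9) to 219 (168 to 270.3) FPKM (log2 2.12, SD 0.22), and *PTR2*, for di- and tripeptides, from 22.1 (17.4 to 26.7) to 89.4 (70.4 to 108). The urea and allantoate transporters *DUR3* and *DAL5*, which serve poor nitrogen sources, rose with log2 ratios of 1.60 (SD 0.22) and 1.90 (SD 0.22). *OPT2*, an oligopeptide transporter, fell from 75.6 (58.7 to 92.5) to 11.6 (9.11 to 14.1) (log2 -2.70, SD 0.22). Its untreated level in wild type was 34, a centred log2 ratio between strains of 1.00.

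The hexose transporters went both ways, with 7 of 16 higher and 5 lower. The 2 low-affinity carriers that dominate at high glucose fell, *HXT1* from 1647 (1275 to 2020.03) to 417 (318 to 516) FPKM and *HXT3* from 4147 (3231 to 5064) to 1807 (1399 to 2214), although the fall of *HXT3* is not called on equal sums. *HXT4* fell from 375 (276 to 474) to 87.8 (69.3 to 106). The high-affinity *HXT2* rose from 91.3 (72.2 to 110.5) to 227 (174 to 280.4), and *HXT5*, known from slow growth and stationary cells, rose from 24.7 (19.3 to 30.2) to 47 (37.5 to 56.4). *HXT7* fell from 27.4 (21.3 to 33.5) to 5.14 (3.8 to 6.48) (log2 -2.41, SD 0.25) and *HXT17* rose from 1.92 (1.33 to 2.5) to 7.24 (5.45 to 9.03) (log2 1.92, SD 0.28), but *HXT6* and *HXT7* are near-identical, and *HXT13*, *HXT15* and *HXT17* closely similar, and their reads are uncertain. The list median of 1.00 rests on genes of very low level, and is -0.21 over those with at least 1 FPKM in both conditions. The Rgt1 motif CGGANNA stood before 13 of 17 hexose transporters (5 higher, 4 lower) and before 42% of all promoters.

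**Figure D4:**
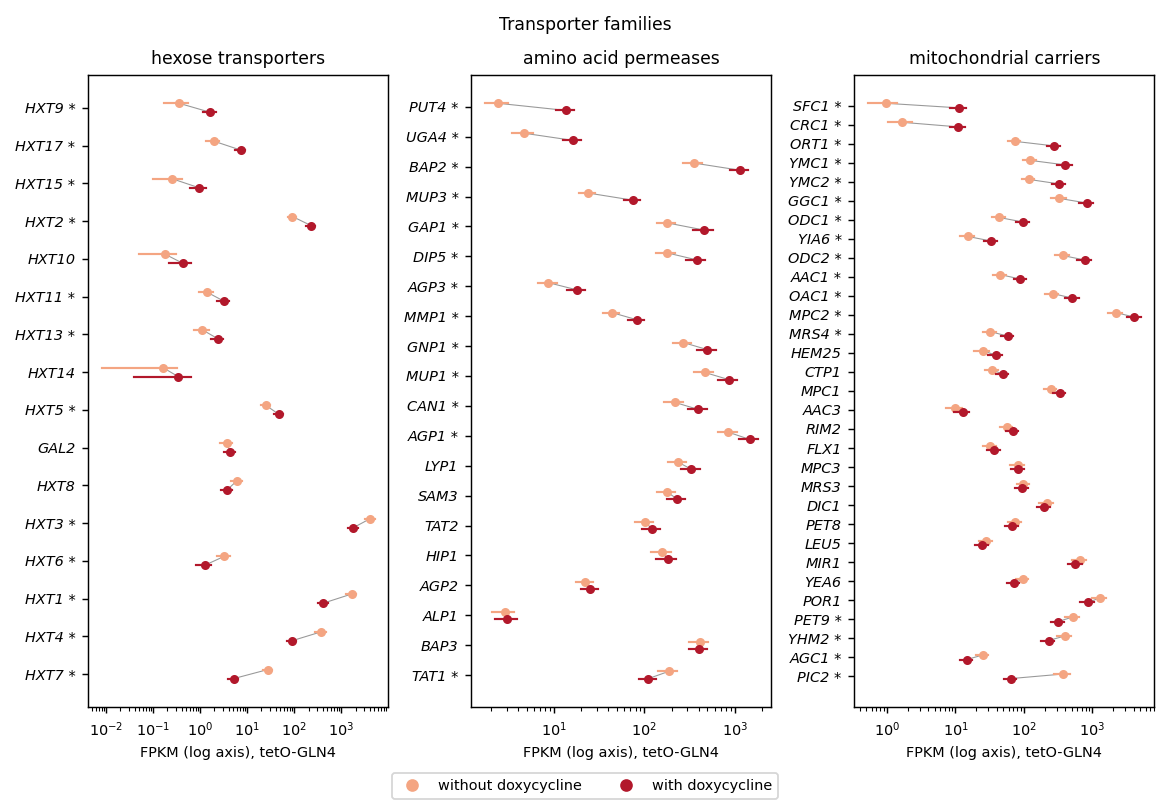
FPKM on a log axis of every hexose transporter, amino acid permease and mitochondrial carrier gene in tetO-GLN4 without (light) and with (dark) doxycycline, ordered by log2 ratio. Bars are the deposited 95% intervals and an asterisk marks intervals that lie apart. HXT1 (1647) and HXT3 (4147) stand highest without doxycycline and fall, and the highest level among the hexose transporters that rise is that of HXT2 (227).

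The list of mitochondrial carriers, which also holds the outer membrane porin gene *POR1* (not called), had 13 of 31 genes higher and 4 lower. *SFC1*, which exchanges succinate for fumarate, rose from 0.971 (0.526 to 1.42) to 11.2 (8.3 to 14.1) FPKM (log2 3.53, SD 0.38), and *CRC1*, for carnitine, rose from 1.68 (1.04 to 2.32) to 11 (8.18 to 13.8). *ORT1*, which exports the arginine precursor ornithine, rose from 73.6 (58.3 to 88.9) to 277 (216 to 338), and the oxodicarboxylate carriers *ODC1* and *ODC2* rose with log2 ratios of 1.17 (SD 0.21) and 1.09 (SD 0.24). *PIC2*, for copper and phosphate, fell from 373 (276 to 471) to 64 (50.8 to 77.1) (log2 -2.54, SD 0.24). *PET9*, the main ADP and ATP carrier, fell from 518 to 319, a call lost on equal sums, and its minor relative *AAC1* rose from 44.6 to 88.7.

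Exporters of drugs and organic anions had 6 genes higher and 6 lower of 29, and their median of -0.028 turns to 0.59 on equal sums. The polyamine exporters moved down as a set of 3. *TPO4* fell from 177 (129.9 to 225) to 22.8 (18 to 27.5) FPKM (log2 -2.96, SD 0.24), *TPO3* from 249 to 38.5 and *TPO2* from 335 to 62.3, while *TPO1* measured 60.9 and 50.1 with overlapping intervals. *ATR1*, which confers aminotriazole resistance, rose from 45.6 (36.1 to 55.1) to 295 (226 to 364) (log2 2.69, SD 0.23), and *AQR1*, an exporter of amino acids and acids, rose from 70.7 (53.8 to 87.6) to 246 (189 to 303). The pump gene *PDR5* was not called, at 125 and 89.1, and the site of Pdr1 and Pdr3, TCCGCGGA, was found before *PDR5* and *PDR15* alone in this list, with 0.649% of all promoters holding it.

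For phosphate, 3 of 21 genes were higher and 4 lower, with a median of -0.13 that is 0.50 on equal sums. Of the 2 high-affinity transporters, *PHO84* fell from 57.4 (45.6 to 69.2) to 33.9 (27 to 40.7) FPKM, which is not called on equal sums (log2 -0.14), and the sodium-coupled *PHO89* rose from 2.15 (1.51 to 2.79) to 9.85 (7.55 to 12.2) (log2 2.20, SD 0.27). *PHO3*, an acid phosphatase that thiamine represses, fell from 151 (118 to 185) to 20.4 (16 to 24.9) (log2 -2.89, SD 0.22). The Pho4 site CACGTG stood before 15 of 21 genes (1 higher, 3 lower) and before 6.23% of all promoters. Ion pumps and channels had 2 genes higher and 0 lower of 17. *PMA2*, the minor proton pump gene, rose from 10.5 (8.23 to 12.7) to 25.5 (20.3 to 30.6). Its major relative *PMA1* was at 1245 (966 to 1523) with doxycycline and had no estimate without it, and the 2 sequences are close enough that reads could be shared. The vacuolar proton pump had 5 of 18 genes lower and 0 higher, with a median of -0.52 that turns to 0.10 on equal sums. *VMA10* led it, from 2219.7 (1708 to 2731) to 1069 (842 to 1296) (log2 -1.05, SD 0.23), a call that is lost on equal sums.

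In respiration, 22 of 102 genes were lower and 11 higher, with a median of -0.061 (0.56 on equal sums), and some pairs of isoforms moved in opposite directions. The respiratory chain passes electrons from NADH and succinate through cytochrome c to oxygen, and the ATP synthase uses the proton gradient. *CYC1*, the main cytochrome c gene, fell from 305 (241 to 368) to 71.4 (53.3 to 89.5) FPKM (log2 -2.09, SD 0.24), and *CYC7*, the isoform known from low oxygen, rose from 22.4 (15.8 to 29) to 117 (90 to 144) (log2 2.38, SD 0.27). Of the external NADH dehydrogenases, *NDE1* fell from 361 (274 to 448) to 172 (133 to 210.4) (log2 -1.07, SD 0.24) and *NDE2* rose from 3.04 (2.15 to 3.92) to 15.9 (12.4 to 19.4) (log2 2.39, SD 0.26). For citrate synthase, *CIT1* fell from 335 (254 to 416) to 157 (122 to 191) and *CIT3* rose from 6.03 (4.44 to 7.61) to 19.7 (15.4 to 24). The falls of *NDE1* and *CIT1* are not called on equal sums. Untreated, *CYC1* and *NDE1* stood above the wild type, where they measured 136 and 130 FPKM (centred log2 ratios between strains 1.01 and 1.33). The same ratios were 0.045 for *CYC7* and -0.30 for *NDE2*.

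The ATP synthase had 7 of 20 genes lower and 0 higher (median -0.52), cytochrome c oxidase had 6 lower and 1 higher of 23 (median -0.34) and complex III with cytochrome c had 3 lower and 2 higher of 14 (median -0.27), and these medians turn to 0.11, 0.28 and 0.35 on equal sums. *STF2*, a regulator of the synthase also known from desiccation tolerance, fell from 2931 (2216 to 3646) to 587 (464 to 709.9) FPKM (log2 -2.32, SD 0.23). Its untreated level in wild type was 1173, a centred log2 ratio between strains of 1.17. *COX19*, a metallochaperone for the oxidase, fell from 228 (177 to 278) to 61.2 (44.6 to 77.7) (log2 -1.90, SD 0.25). *PET117*, an assembly factor, was the oxidase gene that rose, from 99.2 (75.2 to 123) to 159 (124 to 195). The tricarboxylic acid cycle had 2 genes higher and 2 lower of 17, with the mitochondrial malate dehydrogenase *MDH1* lowest, from 329 (255 to 404) to 92.5 (73.9 to 111) (log2 -1.83, SD 0.22). The 4 succinate dehydrogenase genes were not called on the deposited scale, with log2 ratios from 0.23 to 0.61. On equal sums each of these ratios gains 0.62, and the median of the cycle list moves from 0.15 to 0.77. In the list of NADH dehydrogenases and ubiquinone synthesis, 2 were higher and 3 lower of 15.

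Of 13 respiratory regulators, 4 were higher and 1 lower. *HAP4*, the activating subunit of the CCAAT-binding complex, fell from 256 (191 to 321) to 44.7 (35.7 to 53.7) FPKM (log2 -2.52, SD 0.23), while the DNA-binding subunits *HAP2*, *HAP3* and *HAP5* had log2 ratios of 0.34, -0.016 and 0.35 and were not called. *RTG3*, of the retrograde pathway from mitochondria to nucleus, rose from 48.6 (38.8 to 58.5) to 113 (89.1 to 136) (log2 1.21, SD 0.21), with *RTG2* rising from 92.3 to 149.7. CCAAT stood before 19 of 20 ATP synthase genes, 17 of 23 oxidase genes, 10 of 14 genes of complex III and 15 of 17 of the cycle, against 62.4% of all promoters.

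**Figure D5:**
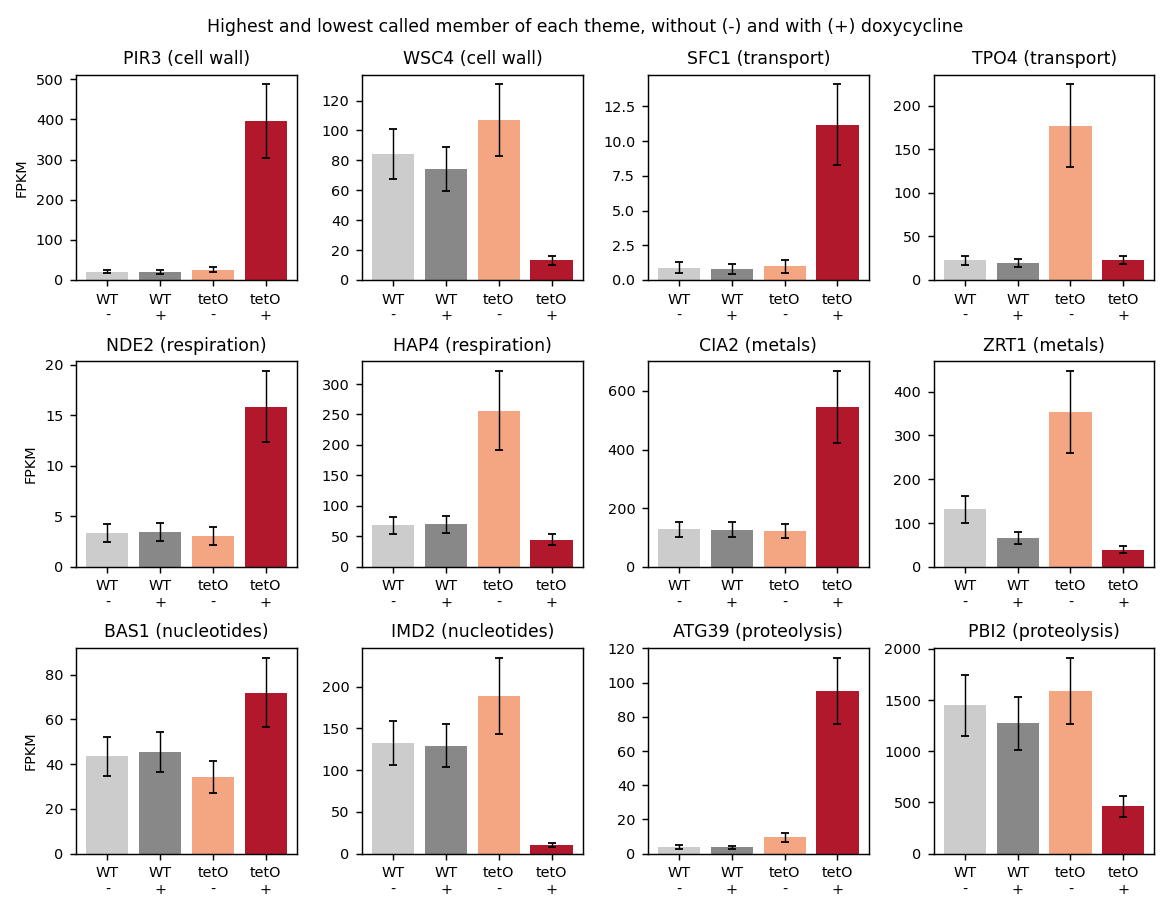
FPKM of the highest and the lowest called gene of each theme (rows of paired panels) in wild type (WT) and tetO-GLN4 (tetO) without (-) and with (+) doxycycline. Bars are the authors' combined values and error bars the deposited 95% intervals; the 2 strains were normalized separately. PIR3, SFC1, NDE2, CIA2 and ATG39 rise in tetO-GLN4 with doxycycline, and HAP4, TPO4 and ZRT1 stand above the wild type without it.

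In metal handling, 28 of 98 genes were higher and 12 lower, and iron-sulfur cluster assembly held 14 of the higher ones. Iron-sulfur clusters are built in the mitochondrion on the scaffold Isu1 and then passed to a cytosolic chain that loads them into enzymes of the cytosol and nucleus. Of 27 genes, 14 were higher and 2 lower, with a median log2 ratio of 0.62. *CIA2* of the cytosolic targeting complex rose from 122 (97.5 to 147) to 544 (421 to 667) FPKM (log2 2.15, SD 0.22). The cytosolic scaffold genes followed, *NBP35* from 59.2 (47.1 to 71.4) to 178 (141 to 216) and its partner *CFD1* from 72.3 (57.6 to 87.1) to 203 (160.1 to 245), and *NAR1* rose from 47.3 to 124. On the mitochondrial side *ISA1* rose from 139.5 (111 to 168) to 411 (319 to 502) and the cysteine desulfurase gene *NFS1* from 97.2 (76.9 to 117) to 173 (134 to 211). *ISU1* and *ISU2* also rose, with log2 ratios of 1.22 and 1.17, though both share a locus with another feature. The 2 that fell were *MGE1*, a cofactor of mitochondrial Hsp70, from 404 (315 to 493) to 207 (165 to 249), and *ISD11*, the partner of the desulfurase, from 513 (408 to 619) to 309 (243 to 375), and neither fall is called on equal sums. Neither of the frataxin gene *YFH1* (176 and 169) and *GRX3* (226 and 204) was called.

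On the deposited scale a minority of iron uptake genes was called, with 6 of 26 higher (23.1%, against 15.0% over all genes) and 0 lower. Log2 ratios lay above 0 in 21 of the 26, and the median of 0.41 is 1.04 on equal sums. *SIT1*, a transporter of siderophores, rose from 19.4 (15.2 to 23.5) to 66.6 (52.7 to 80.6) FPKM (log2 1.78, SD 0.22), and the heme oxygenase gene *HMX1* rose from 10.6 (7.81 to 13.4) to 27.1 (21 to 33.1). Both iron regulators rose, *AFT1* from 25.9 (20.6 to 31.2) to 45.6 (36.4 to 54.8) and *AFT2* from 55.7 to 93.1. The high-affinity system itself was not called, with *FET3* at 172 (133 to 211) and 178 (136 to 219) and *FTR1* at 152 (119.5 to 185) and 196 (152 to 239). The Aft1 core TGCACCC stood before 21 of 26 genes, against 2.33% of all promoters. Of the 21, 4 were higher and 0 lower, beside 15.0% higher and 16.1% lower over all genes.

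Zinc genes divided evenly, with 6 higher and 6 lower of 17. *ZRT1*, the high-affinity zinc importer of the plasma membrane, fell from 353 (260.1 to 447) to 39.1 (30.8 to 47.3) FPKM (log2 -3.18, SD 0.24), and it was also the list gene called in wild type, from 131 to 66.9 (log2 -0.97). *ZRT1* was thus lower with doxycycline in both strains, and the difference between the strains was not tested. *ZRT2*, the low-affinity importer, fell from 415 (317 to 512) to 141 (111 to 171) (log2 -1.56, SD 0.23), with 283 and 249 in wild type. *IZH4* fell from 42.4 (32.9 to 51.9) to 15.8 (12 to 19.7). The activator gene *ZAP1* rose from 19.5 (15.5 to 23.5) to 29.6 (23.7 to 35.6), *ZRG17*, a zinc importer of the endoplasmic reticulum, rose from 32.9 (26.2 to 39.6) to 59.6 (47.5 to 71.7), and *ZPS1* rose from 25.4 (19.4 to 31.4) to 55.6 (43.7 to 67.6) (log2 1.13, SD 0.23). The perfect zinc-responsive element of Zap1, 2 inverted ACCTT arms around 1 free base, was found before *ZRT1* and *ZRG17* of 17 genes and before 0.15% of all promoters. Both elements are shown because the same letters stand before a gene that fell and a gene that rose; capitals mark the element.
ZRT1 (chrVII:20765-20793, plus strand): acatatttgACCTTGAAGGTcatggaaag
ZRG17 (chrXIV:699496-699524, minus strand): aaatgatgaACCTTGAAGGTatttttgtt

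Copper and manganese genes had few calls, with 2 higher and 1 lower of 18. *SOD1*, the copper and zinc superoxide dismutase, fell from 6547 (5029.9 to 8063) to 3193 (2441 to 3945) FPKM (log2 -1.04, SD 0.24), a call that is lost on equal sums, and *MTM1*, a mitochondrial carrier needed for manganese superoxide dismutase, rose from 73.2 (58.5 to 88) to 118 (94 to 142). The copper importer *CTR1* was not called, at 34.2 and 29.1. The Mac1 element TTTGCTC stood before 4 of 20 genes, 0 of them called, and before 8.61% of all promoters. Heme synthesis had 3 of 10 genes lower and 0 higher, with a median of -0.19 that is 0.44 on equal sums. *HEM12* fell from 239.8 (187 to 293) to 92.2 (73.7 to 111) (log2 -1.38, SD 0.22), and the last enzyme, *HEM15*, from 199 (154 to 244) to 98 (78.1 to 118), the latter not called on equal sums.

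Nucleotide synthesis had 22 of 64 genes lower and 4 higher, and its median of -0.41 turns to 0.21 on equal sums. The purine pathway builds IMP, from which IMP dehydrogenase opens the branch to GTP, and the pyrimidine pathway builds UMP through orotate. The steepest fall was in IMP dehydrogenase. *IMD2* fell from 189 (143 to 234) to 10.7 (8.16 to 13.2) FPKM (log2 -4.14, SD 0.24), *IMD3* from 720.5 (551 to 889.6) to 253 (194 to 312) and *IMD4* from 519 (397 to 641) to 144 (112 to 176), with *IMD2* at 132 and 129.5 in wild type. The *IMD* genes are close copies, and *IMD4* shares its locus, so the split between them is uncertain. Over purine synthesis, 6 of 21 genes were lower and 1 higher, and the median of -0.41 turns to 0.21 on equal sums. *ADE17* and *ADE13* fell with log2 ratios of -1.44 (SD 0.24) and -1.35 (SD 0.24). *BAS1*, the activator of the *ADE* genes, was the gene that rose, from 34.2 (26.9 to 41.4) to 72 (56.6 to 87.4). The shared core of the Gcn4 and Bas1 sites, TGACTC, stood before 10 of 21 genes (3 lower, 0 higher) and before 12.7% of all promoters.

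Purine salvage had 7 of 14 genes lower and 2 higher, with a median of -0.65, or -0.026 on equal sums. *ADK1*, which balances AMP, ADP and ATP, fell from 2022 (1545 to 2498) to 743 (571 to 915) FPKM (log2 -1.44, SD 0.24), and *GUK1*, which phosphorylates GMP, from 848 (653 to 1043) to 423 (333 to 513), a call lost on equal sums. *AAH1*, the adenine deaminase, fell from 332 (257 to 408) to 126 (99.8 to 152). The adenine phosphoribosyltransferase gene *APT1* fell from 564 to 254 (not called on equal sums) while its relative *APT2* rose from 125 (98.7 to 151) to 233 (186 to 279) (log2 0.90, SD 0.21).

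The pyrimidine list had 6 of 14 genes lower and 0 higher (median -0.42, turning to 0.20 on equal sums). *URA1*, dihydroorotate dehydrogenase, fell from 2046 (1567 to 2524) to 193 (152 to 234) FPKM (log2 -3.41, SD 0.23), against 1813 and 1822 in wild type. *FUR1*, which salvages uracil, fell from 451 (351 to 551) to 89 (70.4 to 108) (log2 -2.34, SD 0.22), and *URA4* fell from 394 (302 to 486) to 113 (90 to 136). The first enzyme, *URA2*, was not called, at 95.2 (72.9 to 118) and 127 (97.1 to 157), and *URA3* is deleted in both strains. The Ppr1 element, CGG and CCG triplets 6 bases apart, stood before *URA1*, *URA4* and *FCY1* of the 14 genes and before 2.7% of all promoters, and *FCY1* was not called (676 and 616). The elements before the 2 genes that fell are shown, with the triplets and the bases between them in capitals. For *URA1* the element shown is the nearer of 2 to the start codon.
URA1 (chrXI:25025-25054, plus strand): cacgatcttCGGCATTCGCCGaaaattttt
URA4 (chrXII:963646-963675, plus strand): ttcatcattCGGAGAATTCCGatgaatcgg

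For deoxynucleotides, 3 of 15 genes were lower and 1 higher, with a median of -0.30 that is 0.32 on equal sums. *RNR1*, the large subunit of ribonucleotide reductase, fell from 175 (133 to 216) to 64.3 (50.5 to 78) FPKM (log2 -1.44, SD 0.23), and *RNR3*, its isoform known from DNA damage, rose from 3.36 (2.48 to 4.23) to 5.72 (4.36 to 7.08) (log2 0.77, SD 0.25). *HUG1*, a damage-induced gene of the same system, was not called, at 93.9 and 65.7. The Mbp1 cell cycle box ACGCGT stood before 5 of 15 genes (1 higher, 2 lower) and before 5.43% of all promoters.

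Of 154 proteolysis genes, 38 were higher and 8 lower, and autophagy held the largest rises. Autophagy wraps cytoplasm or whole organelles in a membrane and delivers them to the vacuole, with the kinase Atg1 at the start and receptors that choose the cargo. Of 33 genes, 15 were higher and 1 lower (median 0.63). *ATG1* rose from 7.06 (5.44 to 8.68) to 54.8 (43.3 to 66.3) FPKM (log2 2.96, SD 0.22). *ATG41*, which helps deliver Atg9 to the forming membrane, rose from 243 (194 to 293) to 2411 (1847 to 2975) (log2 3.31, SD 0.22), and *ATG9* itself rose from 7.15 to 12.9. Among the receptor genes for organelles, *ATG39* for the nuclear envelope rose from 9.5 (6.99 to 12) to 95.1 (75.8 to 114) (log2 3.32, SD 0.24), *ATG32* for mitochondria from 20 (15.7 to 24.3) to 44.8 (35.7 to 53.8) and *ATG36* for peroxisomes from 17.5 (13.2 to 21.7) to 41.8 (32.9 to 50.8). *ATG40*, for the endoplasmic reticulum, was not called, at 27.5 (21.1 to 33.9) and 43.1 (33.7 to 52.5). *ATG8*, the ubiquitin-like protein of the membrane, rose from 135 (104 to 165) to 215 (169 to 261). Much of the conjugation machinery was not called, with *ATG3*, *ATG5* and *ATG12* at log2 ratios of -0.085, -0.17 and -0.043. *ATG27* was the gene that fell, from 196 (155 to 236) to 113 (90.3 to 136), a call that is lost on equal sums.

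Vacuolar proteases were not shifted as a list, with 2 higher and 2 lower of 12. The protease gene *PRB1* rose from 129 (99.6 to 157) to 259 (199 to 319) FPKM and *PEP4*, the master protease, measured 508 and 562 with overlapping intervals. Their 2 inhibitors went apart. *PBI2*, the inhibitor of Prb1, fell from 1587 (1263 to 1911) to 463 (360.2 to 566) (log2 -1.78, SD 0.22), and *PAI3*, the inhibitor of Pep4, rose from 141 (102 to 179) to 572 (443 to 702) (log2 2.02, SD 0.26).

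Few proteasome genes were called on the deposited scale. The core had 1 gene higher and 1 lower of 14, below the shares over all genes. The cap had 4 higher and 0 lower of 19. Log2 ratios lay above 0 in 9 of 14 core genes and 18 of 19 cap genes. The medians of 0.18 and 0.27 become 0.80 and 0.89 on equal sums. *PRE8* rose from 308 (241 to 374) to 595 (458 to 733) FPKM (log2 0.95, SD 0.23), *PRE1* fell from 546 (424 to 667) to 327 (258 to 395) (log2 -0.74, SD 0.22, not called on equal sums), and *RPT4*, an ATPase of the cap, rose from 258 (199 to 317) to 533 (408 to 658) (log2 1.05, SD 0.24). *RPN4*, the activator of proteasome genes, rose from 75.3 (59.8 to 90.8) to 178 (138 to 218) (log2 1.24, SD 0.22). Its target element PACE, GGTGGCAAA, stood before 12 of 14 core genes and 15 of 19 cap genes and before 1.65% of all promoters. Of these 27 genes 5 were higher, 1 was lower and 21 were not called on the deposited scale. Over all genes 15.0% were higher and 16.1% lower. The elements of a gene that fell and of 2 that rose are shown because the same letters stand before all 3; capitals mark the element on the strand of the gene, where TTTGCCACC is the element on the other strand.
PRE1 (chrV:177684-177710, plus strand): aatctttacGGTGGCAAAaaataaaga
PRE8 (chrXIII:86842-86868, minus strand): gcttattaaGGTGGCAAAattgtcccc
RPT4 (chrXV:813803-813829, minus strand): atagtggaaTTTGCCACCgaagggaaa

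Among the regulators of the proteasome and Cdc48, 4 were higher and 1 lower of 16. The Cdc48 partners *NPL4* and *UFD1* rose with log2 ratios of 0.89 (SD 0.21) and 0.73 (SD 0.21), while *CDC48* measured 427 and 431. *IRC25*, a chaperone of core assembly, fell from 115 (90.8 to 139) to 73.6 (57.5 to 89.6) FPKM, which is not called on equal sums. In the ubiquitin list 6 were higher and 3 lower of 24 (25% and 12.5%, against 15.0% and 16.1% over all genes). The polyubiquitin gene *UBI4* rose from 249 (193 to 304) to 1099 (842 to 1356) (log2 2.14, SD 0.23). The conjugating enzyme gene *UBC5*, known from stress, rose from 99.1 (77.4 to 121) to 335 (267 to 402) while its close relative *UBC4* measured 1436 and 1212 with overlapping intervals. *UBC9*, which conjugates SUMO in place of ubiquitin, fell from 256 (205 to 307) to 84.7 (66 to 103). Deubiquitinating enzymes had 3 genes higher and 0 lower of 19, led by *OTU1*, which acts with Cdc48 (74.2 (59.1 to 89.3) to 153 (121 to 184), log2 1.04, SD 0.21). Mitochondrial proteases had 3 higher and 0 lower of 17, led by *MAS2* of the presequence peptidase (93 (73.8 to 112) to 195 (152 to 239), log2 1.07, SD 0.22). The shares higher in these 2 lists, 15.8% and 17.6%, lay near the 15.0% over all genes.

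A number of genes that fell started from a level above the wild type. The 2 strain tables were normalized separately, and the median untreated log2 ratio of tetO-*GLN4* to wild type over all genes, 0.15, was taken off first. On that scale 14 of the 142 list genes called lower had an untreated FPKM at least 2-fold above the wild type and 0 had one 2-fold below, against 3 and 3 of the 152 called higher and 2.88% and 0.979% of all genes. These counts use the same untreated values as the response, so they are not independent of it. Among the 14 are *KNH1*, *HXT7*, *OPT2* and *ZRT1*, with centred log2 ratios of 1.37, 1.80, 1.00 and 1.28. *SOD1* lay below that cut, at 0.81. The levels that follow are deposited FPKM without centring. Summed FPKM was 2442140 in untreated wild type and 1698780 in treated tetO-*GLN4*, so whether a treated level lies near the wild type depends on the scale. Untreated, *TPO4* stood at 177 FPKM in tetO-*GLN4* and 22.4 in the wild type, and fell with doxycycline to 22.8. *PIC2* stood at 373 and 67.4 and fell to 64, and *HAP4* stood at 256 and 68.2 and fell to 44.7. For these 3 genes the treated level on the deposited scale lay near or below the wild-type level. In contrast, *URA1* (2046 against 1813 untreated, 193 treated) and *DSE2* (1712 against 1466 untreated, 342 treated) fell well below that of the wild type. Of the rises, *NCA3* started below the wild type (34.2 against 69.7) and ended above it (493), and *SHC1* started below it (3.41 against 7) and ended near it (8.22).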

How the data were processed

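RNA from 12 cultures (4 groups of 3) was sequenced by the authors from stranded mRNA libraries. Per the labels and the paper's methods, the reads were mapped with TopHat 1.4.0 to sacCer3 (R64), and Cufflinks and Cuffdiff, in versions not given in the sources used here, made the deposited FPKM values. The strand setting of the counting is not stated, so overlapping and antisense genes cannot be separated with certainty. The deposited FPKM tables hold 1 value per gene and condition over 3 cultures with a 95% interval. Every FPKM printed is the authors' combined value. The authors' deposited tables of their own comparisons (fold changes, p-values and q-values) were not used. No counts, depths or values per culture were analysed. Precision is therefore limited to the deposited intervals (median SD 10.9% and 10.7% of the FPKM in tetO-*GLN4*), and spread between cultures may be technical or biological.

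Genes with status OK in both conditions were kept. Log2 ratios used no pseudocount, and the distance from the FPKM to its upper bound was taken as 2 SDs. A gene was called where the intervals did not overlap. This rule was run on simulated data with noise taken from the same intervals. Such data cannot show how it behaves under spread between cultures or a shift in summed FPKM. List symbols were matched to 717 genes by symbol and 16 by locus tag. Of the genes with a ratio, 1232 shared a locus with another feature. Promoters were the 500 bases before the start codon of the RefSeq R64 assembly, and 99.9% of 5994 coding genes lay within their locus in the table.

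The lists, motifs and members were chosen with earlier results of these data known. Named were, in each list, the highest and the lowest called gene with at least 5 FPKM in the higher condition, and in each of 6 themes the 3 highest and 3 lowest (74 genes); other genes named were chosen after their values were seen, for their role beside these. Results for some list genes and 1 motif are not reported here. The alternatives were a z test with Benjamini-Hochberg adjustment, a 2-fold minimum, at least 1 FPKM in both conditions, a pseudocount of 1, equal sums, centring on the median, and leaving out shared loci. Python 3.11.15, pandas 2.3.3, numpy 2.4.6, scipy 1.17.1 and matplotlib 3.10.9 were used.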

Additional observations from a re-analysis of the deposited data

How the results depend on the processing

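The counts in tetO-*GLN4* lay between 1819 and 2554 under a z test with Benjamini-Hochberg adjustment (2554 genes), with at least 1 FPKM in both conditions (1998), with ratios centred on the median (2040) and without shared loci (1819). Asking also for a 2-fold change left 1116 genes, 545 higher and 571 lower, and in wild type 2 lower. Equal sums called 3127, with 2824 higher and 303 lower, since every log2 ratio then gains 0.62. On that scale the list medians that turned from below to above 0 were 0.62 (chitin synthesis), 0.069 (protein mannosylation), 0.50 (phosphate uptake and storage), 0.59 (drug and organic anion exporters), 0.10 (vacuolar H+-ATPase), 0.35 (complex III and cytochrome c), 0.28 (cytochrome c oxidase and its assembly), 0.11 (ATP synthase), 0.44 (heme synthesis), 0.21 (purine de novo synthesis), 0.20 (pyrimidine synthesis and salvage), 0.32 (deoxynucleotide synthesis). The other medians moved to 0.66 (beta-glucan synthesis), -0.19 (glucan remodelling enzymes), 0.68 (GPI and PIR wall proteins), -0.92 (daughter cell separation), 0.67 (wall integrity signalling), 1.62 (hexose transporters), 1.50 (amino acid permeases), 1.30 (nucleobase, vitamin and peptide transporters), 0.64 (ion pumps and channels), 1.05 (mitochondrial carriers), 0.77 (TCA cycle and succinate dehydrogenase), 0.63 (NADH dehydrogenases and ubiquinone), 0.96 (respiratory regulators), 1.04 (iron uptake), 0.93 (zinc homeostasis), 0.78 (copper and manganese), 1.24 (iron-sulfur cluster assembly), -0.026 (purine salvage and interconversion), 0.80 (20S proteasome core), 0.89 (19S proteasome cap), 0.90 (proteasome regulators and Cdc48), 0.79 (ubiquitin and its transfer), 0.76 (deubiquitinating enzymes), 0.71 (vacuolar proteases), 1.26 (autophagy machinery), 0.95 (mitochondrial proteases). Over genes with at least 1 FPKM the hexose transporters had a median of -0.21, and with a pseudocount of 1 it was 0.24. Without shared loci the glucan remodelling enzymes had a median of -0.028, near that of all genes. Of the 74 genes named by rule, 65 were still called on equal sums and 9 were not (*CHS2*, *TAT1*, *VMA10*, *NDE1*, *SOD1*, *MGE1*, *PRE1*, *IRC25* and *ATG27*), and centring on the median ended the call of *PET117*. No paired analysis was possible because the deposited columns combine the 3 cultures of a condition, and for the same reason leaving out a culture was not run. The unknown depth means that a gene listed at 0 cannot be given an upper limit.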

Other observations

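Further groups, chosen after their values were seen, are given as values without an explanation. For their counts, the shares over all genes with a ratio were 15.0% higher and 16.1% lower. Of 26 peroxins, which build peroxisomes and import their enzymes, 10 were higher and 1 was lower in tetO-*GLN4* with doxycycline (median log2 ratio 0.42). *PEX21*, a co-receptor for import, rose from 73.4 (58.3 to 88.6) to 207 (163 to 250.4) FPKM (log2 1.49, SD 0.21). *PEX22* fell from 73.5 (57.5 to 89.6) to 43.1 (33 to 53.2), a call lost on equal sums. Of 23 *THI*, *SNZ* and *SNO* genes, which cover thiamine and pyridoxine synthesis, thiamine transport and its regulation, 11 were higher and 0 lower (median 0.66). Of the 11, *THI5*, *THI11*, *THI12*, *THI13* and *SNO4* lay below 5 FPKM in both conditions, and the first 4 are near-identical copies whose reads are uncertain. The adjacent pyridoxine genes *SNZ1* and *SNO1* rose from 273 (212 to 333) to 2958 (2279 to 3637) and from 66.3 (52.2 to 80.5) to 428 (334 to 523), with log2 ratios of 3.44 (SD 0.23) and 2.69 (SD 0.22). Their copies *SNZ2* and *SNZ3* were not called, at 5.58 and 6.47 and at 3.44 and 3.98, although reads of near-identical copies are uncertain. The thiazole enzyme gene *THI4* rose from 7.42 (5.38 to 9.45) to 25.1 (19.5 to 30.8).

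Of 19 genes with symbols that start with HSP, HSC, SSA or SSE, 9 were higher and 1 was lower (median 0.36). The shares over all genes were 15.0% higher and 16.1% lower. Not all of the 19 encode chaperones, and the set does not cover the whole Hsp70 family. The Hsp90 gene *HSP82* rose from 53.8 (42.7 to 64.8) to 256 (196 to 316) FPKM (log2 2.25, SD 0.22), while its near-identical partner *HSC82* measured 725 and 931 with overlapping intervals. *HSP26* rose from 98.9 (76.5 to 121) to 829 (636 to 1021), *HSP104* was not called at 180.3 and 158, and the membrane protein gene *HSP30* fell from 578 (421 to 734) to 151 (119 to 182).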
